A study of Mus musculus with 26 samples.

Results

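Proliferins are secreted glycoprotein hormones of the prolactin family, and the 3 genes described here, Prl2c2, Prl2c3 and Prl2c5, are near-identical paralogs out of 55341 genes listed for each library. They were chosen on 1 contrast, the change from 0 h to 24 h of differentiation in cells treated with control siRNA, where Prl2c2 ranked 23 from the lowest log2 fold change among 15820 genes tested, with Prl2c3 at rank 46 and Prl2c5 at rank 1112. The values of that contrast, and of comparisons that share its control libraries, are therefore described without a test.

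In the mouse, proliferins are best known from the placenta, where trophoblast giant cells release them to act on blood vessels and to stimulate the migration of endothelial cells. They were first found as transcripts that serum and growth factors induce in cultured fibroblasts, and they are also called mitogen-regulated proteins. They bind the cation-independent mannose 6-phosphate receptor, which is the product of Igf2r, and AP-1 (dimers of Fos and Jun proteins) and the glucocorticoid receptor are known regulators of proliferin transcription.

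Polyadenylated RNA was sequenced from C2C12, a mouse myoblast line that withdraws from the cell cycle and forms multinucleated myotubes once serum is reduced. For the knockdown, cells were transfected with a control siRNA (siCtrl) or with 1 of 2 siRNAs against the lysine methyltransferase SMYD3 (siSMYD3#1, siSMYD3#2), first 24 h before differentiation medium was added and again at that step, and were collected at the medium change (0 h) and after 24 h, in 3 replicates for each treatment and time. For the overexpression, SMYD3 CL5, a line grown from a single subclone that carries a retroviral vector for HA- and Flag-tagged SMYD3, was compared with cells that carry the empty pREV vector, also sub-cloned, at the same times in 2 replicates each. In the siRNA conditions replicates 1 and 2 were passage 14 cells extracted on NucleoSpin columns and replicate 3 was passage 11 cells extracted with TRIzol, so passage and extraction cannot be told apart, and all overexpression libraries were TRIzol extracts. Because SMYD3 CL5 is 1 clone, an effect of SMYD3 and a property of that clone cannot be told apart either.

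The 18 siRNA libraries held 14315193 to 60398170 counts each, and the 8 overexpression libraries 21124675 to 67853386. The level of Smyd3 itself was 20.3 to 22.1 CPM (counts scaled to library size, with TMM factors) in siCtrl at 0 h, 17.4 to 20.2 with siSMYD3#1 and 6.42 to 9.43 with siSMYD3#2, and the log2 fold change against siCtrl was -0.16 ± 0.16 (SE) at 0 h for siSMYD3#1 (edgeR adjusted p = 0.785) and -1.41 ± 0.16 for siSMYD3#2 (adjusted p = 0.000107). In SMYD3 CL5, Smyd3 differed from the vector cells by 0.29 ± 0.27 at 0 h (adjusted p = 0.593). At 24 h these Smyd3 differences were -0.24 ± 0.16 (adjusted p = 0.414), -1.51 ± 0.17 (adjusted p = 5.06e-05) and 0.36 ± 0.27 (adjusted p = 0.671). In these RNA counts the test therefore found the labelled change of Smyd3 with siSMYD3#2 alone, and siSMYD3#1 and SMYD3 CL5 are used below as the names of labelled libraries. The study also measured Smyd3 by qPCR and SMYD3 protein by western blot after knockdown. It checked the tagged SMYD3 of its clones by western blot and immunofluorescence. Those measurements were not examined here, and these counts do not address SMYD3 protein. Of 6 trophoblast and placenta markers, 0 had enough counts to be tested in either experiment, while the 6 markers of differentiating muscle all rose between 0 h and 24 h in siCtrl. The 4 proliferation markers all fell there (median on the log2 scale -1.02). Of 9 endothelial, leukocyte and fibroblast markers 4 had enough counts to be tested in the siRNA experiment. The fibroblast marker Dcn was called higher at 24 h than at 0 h with each of the 3 siRNAs and lower with siSMYD3#2 than with siCtrl at 24 h, and the endothelial marker Kdr was called higher at 24 h with siSMYD3#1. In bulk RNA, fewer expressing cells and less RNA per cell cannot be told apart.

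The 3 genes lie within a stretch of mouse chromosome 13 in GRCm38, Prl2c3 at chr13:12790816-12800079 and Prl2c2 at chr13:12996125-13005383 on the minus strand, and Prl2c5 at chr13:13182715-13191923 on the plus strand. Each has 5 exons in its first GENCODE M21 transcript, and 0 other annotated genes overlap any of them. The coding sequences of Prl2c2 and Prl2c3 differed at 3 of 672 bases (99.6% identical), whereas Prl2c5 differed from Prl2c2 by 20 substitutions and a gap of 6 bases (96.1% identical) and from Prl2c3 by 21 substitutions and the same gap (96.0%). The differences set which reads can be assigned, so the stretches that carry them are shown, from GENCODE M21 transcripts, 5′ to 3′, with every base that varies among the 3 genes in capitals. Around coding base 14, counted from the A of the start codon, the Prl2c2 to Prl2c3 substitution is T14C, and Prl2c5 has the base of Prl2c2:
Prl2c2: atgctcccttcttTgattcaaccatgctc
Prl2c3: atgctcccttcttCgattcaaccatgctc
Prl2c5: atgctcccttcttTgattcaaccatgctc

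Around coding base 200 the substitution is C200A, and this stretch crosses an exon junction in each gene:
Prl2c2: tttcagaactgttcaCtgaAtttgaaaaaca
Prl2c3: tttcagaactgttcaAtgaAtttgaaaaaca
Prl2c5: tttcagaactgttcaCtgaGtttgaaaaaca

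Around coding base 319 the substitution is T319G, beside 4 further positions at which Prl2c5 alone differs:
Prl2c2: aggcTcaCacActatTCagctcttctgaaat
Prl2c3: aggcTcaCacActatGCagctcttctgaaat
Prl2c5: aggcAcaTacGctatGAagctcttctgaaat

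Between these positions Prl2c2 and Prl2c3 are the same. One stretch of 75 bases, the length of 1 read, lies within a single exon at chr13:13002213-13002287 in Prl2c2, chr13:12796910-12796984 in Prl2c3 and chr13:13185812-13185886 in Prl2c5, and is identical in Prl2c2 and Prl2c3 while Prl2c5 differs at 4 bases:
Prl2c2 and Prl2c3: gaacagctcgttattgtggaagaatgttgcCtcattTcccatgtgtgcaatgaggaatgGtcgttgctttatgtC
Prl2c5: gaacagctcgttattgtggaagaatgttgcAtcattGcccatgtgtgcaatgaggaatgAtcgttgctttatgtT

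The gap of Prl2c5, coding bases 498 to 503 of the other paralogs, is shown with the bases it lacks in capitals:
Prl2c2 and Prl2c3: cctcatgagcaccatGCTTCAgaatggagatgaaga
Prl2c5: cctcatgagcaccatgaatggagatgaaga

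**Figure D1:**
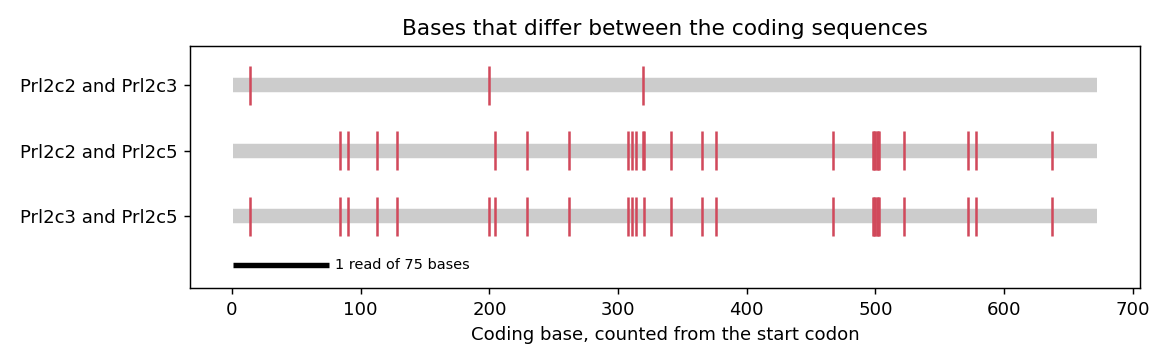
Positions (red lines) at which the coding sequences of each pair of proliferin genes differ, along the coding bases counted from the start codon, with the length of 1 read of 75 bases drawn to scale. Prl2c2 and Prl2c3 differ at 3 positions, and both differ from Prl2c5 at more. Of 598 coding windows of 75 bases, 26 are identical in Prl2c2 and Prl2c5 and 16 in Prl2c3 and Prl2c5.

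These differences limit what a count of 1 paralog can mean. Of the 1158 windows of 75 bases in the annotated transcripts of Prl2c2, 831 (71.8%) also occur in another gene, 701 of them in Prl2c3, and 327 are its own. Prl2c3 has 656 of 1357 windows to itself, with 701 (51.7%) shared, and Prl2c5 has 946 of 1176, with 230 (19.6%) shared. The pseudogene Gm7040 shares 154 windows with Prl2c2 and with Prl2c3. Each window stands for a single read, whereas the libraries were paired-end and either read of a pair can place it. The shares of windows are therefore not shares of reads that could not be assigned. How the counting treated reads that align in several places is not given in the sources used here, so the split between Prl2c2 and Prl2c3 is uncertain, and the main comparisons are also given for the sum of the 3 genes.

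All 3 proliferin genes were expressed in C2C12 myoblasts at 0 h, and Prl2c3 had the highest level. In siCtrl at 0 h, Prl2c3 was at 541 CPM in replicate 1, 422 in replicate 2 and 61.7 in the TRIzol replicate 3. Prl2c2 was at 82.2, 82.1 and 37.9 CPM in the same libraries, and Prl2c5 at 6.76, 5.43 and 2.1 CPM. Per exon length, the siCtrl 0 h levels were 251 ± 183 RPKM (SD, n = 3) for Prl2c3, 61.8 ± 23.5 RPKM for Prl2c2 and 4.05 ± 2.04 RPKM for Prl2c5. In all 26 libraries Prl2c3 was above Prl2c2 and Prl2c2 above Prl2c5, in CPM and in RPKM.

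After 24 h in differentiation medium the siCtrl cells held far less Prl2c2 and Prl2c3 RNA. Prl2c2 was at 8.61, 8.25 and 5.58 CPM in replicates 1, 2 and 3, each below every 0 h library, and the log2 fold change was -3.08 ± 0.19 (SE), an 8.49-fold lower level. Prl2c3 was at 65.8, 68.2 and 18.1 CPM, and its log2 fold change was -2.45 ± 0.26. Its NucleoSpin libraries at 24 h stood at about the level of the TRIzol library at 0 h, so the groups overlap unless replicates of the same number are set side by side, where the ratio of 0 h to 24 h was 8.22, 6.19 and 3.41. Prl2c5 was at 3.54, 4.33 and 0.688 CPM, with a log2 fold change of -0.85 ± 0.23 and overlapping groups. Of all genes tested, 14.8% were called lower in this contrast at an adjusted p under 0.01, but nothing is read from that for genes chosen on it. The sum of the 3 genes gave -2.55 ± 0.23.

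The same comparison in cells that received an siRNA against SMYD3 uses other libraries and was tested. Those libraries share batches and the estimate of the spread with siCtrl, and same-numbered libraries deviated together. They are therefore not an independent repeat of the contrast that chose the genes. With siSMYD3#1, Prl2c2 went from 95.1, 86.9 and 35.3 CPM at 0 h to 11, 11.5 and 5.53 CPM at 24 h in replicates 1, 2 and 3, a log2 fold change of -2.89 ± 0.19 (edgeR adjusted p = 4.22e-08). Prl2c3 went from 550.1, 412 and 63.0 CPM to 71.0, 70.9 and 12.8 CPM, a log2 fold change of -2.60 ± 0.26 (adjusted p = 5.95e-06). Every 24 h library was below its same-numbered 0 h library for both genes, by 6.38-fold to 8.64-fold for Prl2c2 and 4.91-fold to 7.75-fold for Prl2c3. Prl2c5 went from 4.88, 5.26 and 1.56 CPM to 1.33, 2.63 and 0.500 CPM, a log2 fold change of -1.47 ± 0.26 (adjusted p = 0.000218). All 3 members fell, where 12.7% of all genes tested did, and the sum of the 3 was at -2.64 ± 0.23 (adjusted p = 1.16e-06).

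With siSMYD3#2, Prl2c2 and Prl2c3 fell and Prl2c5 did not pass the test. Prl2c2 was at 107.5, 84.1 and 30.0 CPM at 0 h and at 24.6, 26.1 and 6.73 CPM at 24 h, a log2 fold change of -1.95 ± 0.18 (edgeR adjusted p = 1.31e-06). Prl2c3 was at 621, 413 and 53.7 CPM and then at 140.0, 173 and 17.1 CPM, a log2 fold change of -1.67 ± 0.25 (adjusted p = 0.000235). Prl2c5 was at 5.52, 4.32 and 1.22 CPM at 0 h and at 5.06, 5.81 and 1.61 CPM at 24 h, with a log2 fold change of 0.23 ± 0.23 (adjusted p = 0.482) and groups that overlap. Thus 2 of the 3 members fell, where 9.88% of all genes tested did, and the sum of the 3 fell by 1.70 on the log2 scale (adjusted p = 5.4e-05).

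**Figure D2:**
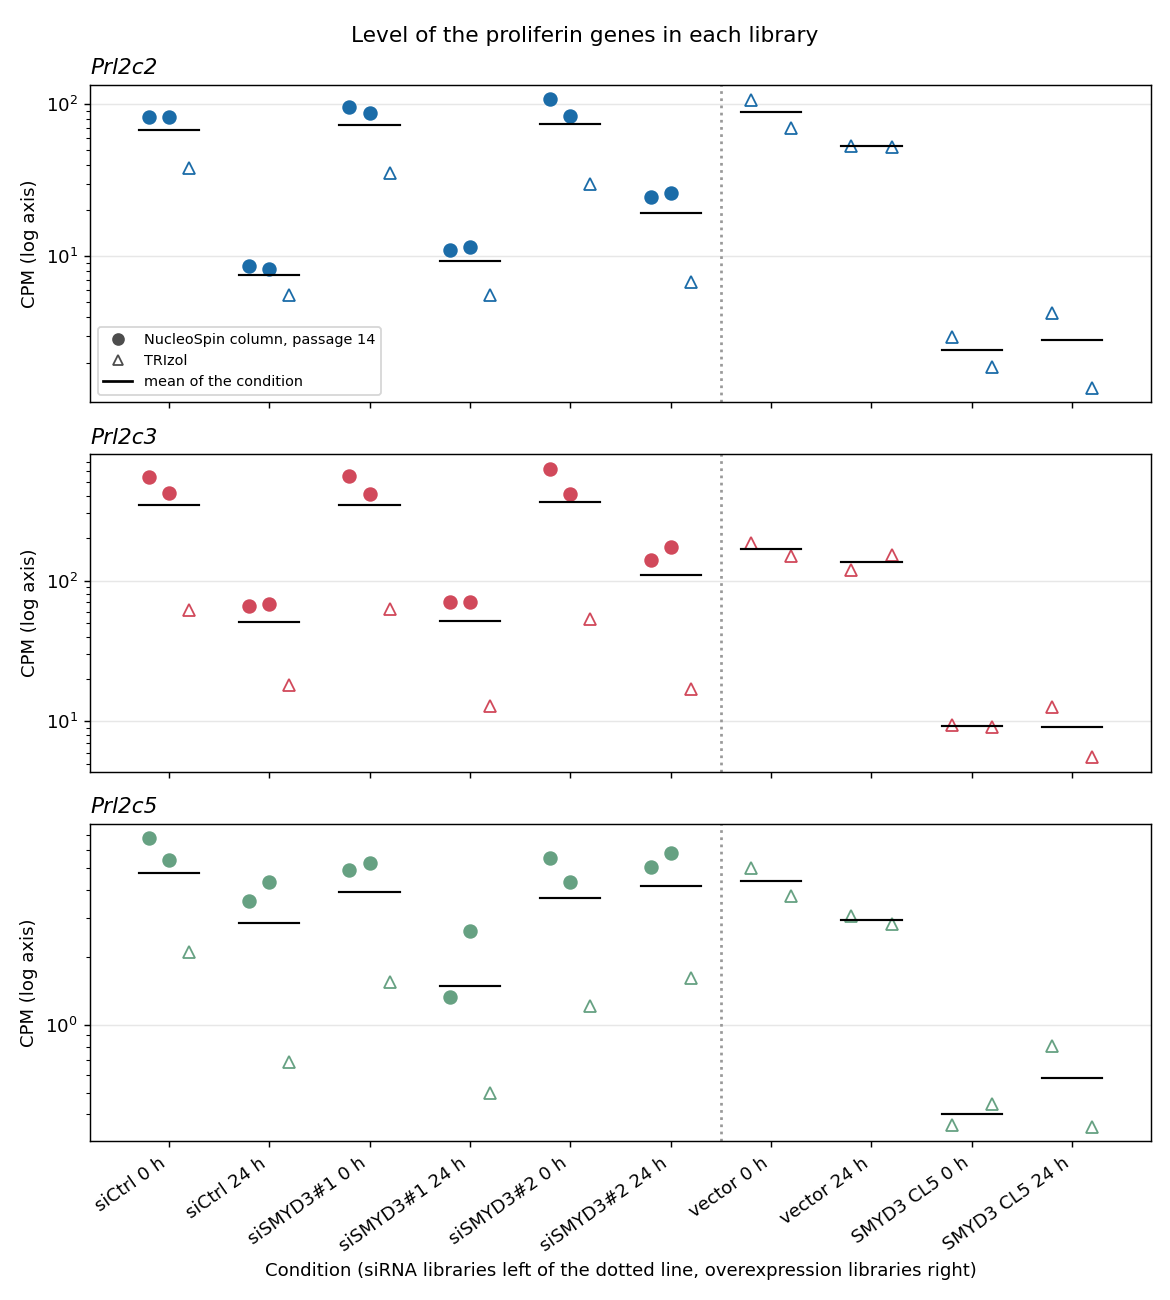
Level of each proliferin gene (CPM, TMM-scaled, log axis) in each of 26 libraries by condition, with filled circles for NucleoSpin extracts, open triangles for TRIzol extracts and a line at the mean of the condition. Prl2c2 and Prl2c3 are lower at 24 h than at 0 h in all 3 siRNA treatments, least so with siSMYD3#2, and all 3 genes are lowest in SMYD3 CL5.

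At 0 h no member was called between the SMYD3 siRNAs, and at 24 h Prl2c2 and Prl2c5 were called lower with siSMYD3#1. Between siSMYD3#1 and siSMYD3#2 at 0 h the log2 fold changes were 0.02 ± 0.17 for Prl2c2, -0.01 ± 0.24 for Prl2c3 and 0.12 ± 0.23 for Prl2c5 (edgeR adjusted p = 0.988, 0.997 and 0.902), so 0 of 3 members were called, 0 had an unadjusted p under 0.05 and DESeq2 called 0, where 1.17% of all genes were called in either direction. At 24 h, Prl2c2 was lower with siSMYD3#1 than with siSMYD3#2, at -0.93 ± 0.19 (adjusted p = 0.00612), as was Prl2c5 at -1.57 ± 0.26 (adjusted p = 0.00089), where 1.31% of all genes were called lower. For Prl2c3 the difference was -0.93 ± 0.25 (adjusted p = 0.0351) and did not pass the threshold of 0.01. The summed counts gave -0.94 ± 0.22 (adjusted p = 0.0149), which does not pass either. In the same comparison 2 of 6 markers of differentiating muscle were called lower with siSMYD3#1 and 5 were lower at an adjusted p under 0.05 (median -1.56), and 1 of 4 proliferation markers was called lower (median -0.22). Their part in the proliferin difference was not tested.

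Leaving out replicate 1 or 2 of either siRNA at 24 h ended the call of Prl2c2 (edgeR adjusted p = 0.0341 to 0.0522), and leaving out replicate 1 of siSMYD3#1 did so for Prl2c5 (edgeR adjusted p = 0.0122).

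The difference was also read within each batch. For Prl2c2 the siSMYD3#2 level at 24 h was 2.24 and 2.26 times the siSMYD3#1 level in replicates 1 and 2 and 1.22 times in the TRIzol replicate 3. For Prl2c3 the ratios were 1.97, 2.45 and 1.33, and for Prl2c5 they were 3.79, 2.21 and 3.22. In the NucleoSpin libraries alone the log2 difference of Prl2c3 was -1.15 ± 0.20 and passed the threshold (edgeR adjusted p = 0.00216). More genes were called lower in that fit, 640 of 15222, against 207 of 15820 in the main fit. Whether the change from 0 h to 24 h differed between the siRNAs was tested with an interaction term, which was -0.94 ± 0.26 for Prl2c2, -0.93 ± 0.35 for Prl2c3 and -1.70 ± 0.35 for Prl2c5 (edgeR adjusted p = 0.36, 0.723 and 0.134). The interaction passed the threshold for 0 of 15820 genes (0%) in edgeR, with 961 at an unadjusted p under 0.05, and for 22 genes in DESeq2. Prl2c5 was among those 22 genes. Without the low-count filter it passed for all 3 members, where 123 of 31510 genes were called. In the NucleoSpin libraries alone it passed for Prl2c2, where 70 of 15222 genes were called.

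Against siCtrl, whose libraries chose the members, the values are given as a description. At 0 h both siRNAs left Prl2c2 and Prl2c3 within 0.07 of siCtrl on the log2 scale, and Prl2c5 was at -0.31 ± 0.23 with siSMYD3#1 and -0.43 ± 0.23 with siSMYD3#2. At 24 h with siSMYD3#1, Prl2c2 was at 0.26 ± 0.20, Prl2c3 at -0.14 ± 0.26 and Prl2c5 at -0.92 ± 0.26. At 24 h with siSMYD3#2 all 3 were above siCtrl, with Prl2c2 at 1.19 ± 0.20, Prl2c3 at 0.79 ± 0.25 and Prl2c5 at 0.65 ± 0.24. Within the NucleoSpin libraries the siSMYD3#2 values were larger for Prl2c2 and Prl2c3, at 1.59 ± 0.13 and 1.23 ± 0.20, and smaller for Prl2c5, at 0.48 ± 0.25. In the TRIzol pair the log2 ratio of siSMYD3#2 to siCtrl was 0.27 for Prl2c2, -0.08 for Prl2c3 and 1.23 for Prl2c5. The 6 markers of differentiating muscle were all called lower than in siCtrl at 24 h with each siRNA, with medians of -3.68 with siSMYD3#1 and -2.2 with siSMYD3#2, against medians of 0 over all genes. Of the 4 proliferation markers, 2 were called higher than in siCtrl at 24 h with siSMYD3#2 and 4 were higher at an adjusted p under 0.05 (median 0.44), while with siSMYD3#1 0 were called by edgeR and 1 was higher at 0.05 (median 0.23). The part of either marker list in the proliferin values was not tested.

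SMYD3 CL5 had less RNA of all 3 proliferin genes than vector cells at 0 h, and of Prl2c2 and Prl2c3 at 24 h. At 0 h, Prl2c2 was at 107 and 69.7 CPM in the vector libraries and at 2.95 and 1.88 CPM in SMYD3 CL5, a log2 fold change of -5.26 ± 0.57 (edgeR adjusted p = 0.00493), or 38.2-fold lower. Prl2c3 was at 185 and 150 CPM against 9.45 and 9.05 CPM, a log2 fold change of -4.25 ± 0.42 (adjusted p = 0.00351). Prl2c5 was at 4.99 and 3.73 CPM against 0.360 and 0.444 CPM, which is 15 and 18 counts, with a log2 fold change of -3.50 ± 0.47 (adjusted p = 0.00987). All 3 members were called lower, where 0.606% of all genes tested were, and the sum of the 3 was at -4.50 ± 0.46 (adjusted p = 0.00384).

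At 24 h, Prl2c2 was at 53.0 and 52.6 CPM in vector cells and at 4.24 and 1.37 CPM in SMYD3 CL5, a log2 fold change of -4.21 ± 0.54 (edgeR adjusted p = 0.00872). Prl2c3 was at 120 and 151 CPM against 12.7 and 5.55 CPM, a log2 fold change of -3.91 ± 0.41 (adjusted p = 0.00454). Prl2c5 was at 3.06 and 2.81 CPM against 0.808 and 0.352 CPM, a log2 fold change of -2.30 ± 0.45 that missed the threshold (adjusted p = 0.0395). In this comparison 2 of 3 members were called lower, as were 0.589% of all genes, and the sum of the 3 was at -3.95 ± 0.44 (adjusted p = 0.00573). With 2 replicates per condition, leaving out a library leaves 1 sample in its condition, which is then assumed to vary like the other conditions. Under that assumption each call was lost when a single library was left out. At 0 h leaving out either vector library did so for all 3 genes, with adjusted p up to 0.0356 for Prl2c2, 0.0324 for Prl2c3 and 0.0905 for Prl2c5, as did leaving out SMYD3 CL5 replicate 2 for Prl2c5 (adjusted p = 0.0101). At 24 h leaving out any of the 4 libraries did so for Prl2c2 and Prl2c3, with adjusted p of 0.0116 to 0.0545 and log2 fold changes of -5.31 to -3.44. The share of all genes called moved as well: the 108 genes called lower at 0 h became 1292 without SMYD3 CL5 replicate 1, 164 without its replicate 2, 1 without vector replicate 1 and 0 without vector replicate 2, and the 105 at 24 h became 0 to 8.

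Between 0 h and 24 h the members did not pass the threshold in either line of the overexpression experiment. In vector cells the log2 fold changes from 0 h to 24 h were -0.77 ± 0.47 for Prl2c2, -0.34 ± 0.37 for Prl2c3 and -0.60 ± 0.41 for Prl2c5 (edgeR adjusted p = 0.821, 0.922 and 0.852). In SMYD3 CL5 they were 0.27 ± 0.50, 0.00 ± 0.38 and 0.60 ± 0.47 (edgeR adjusted p = 0.929, 1 and 0.903). Without SMYD3 CL5 replicate 1 at 24 h the sign turned for Prl2c2 (-0.82) and Prl2c5 (-0.18), and without replicate 2 Prl2c3 was at 0.46. In both comparisons 0 of 17835 genes (0%) were called by edgeR, with 1256 and 1137 at an unadjusted p under 0.05 and 119 and 109 called by DESeq2. For SMYD3 CL5 that count rests on 1 library, since 1037 genes (534 higher and 503 lower) were called without SMYD3 CL5 replicate 1 at 0 h. The change from 0 h to 24 h did not differ between the lines past the threshold for any of 17835 genes in edgeR (0%), with 312 at an unadjusted p under 0.05 and 2 called by DESeq2. Myog, which encodes the muscle transcription factor myogenin, was at 0.188 to 1.95 CPM at 0 h and 57.2 to 268 CPM at 24 h in siCtrl, and at 6.61 to 6.74 CPM in vector cells at 24 h. It was at 15.1 to 78.9 CPM in SMYD3 CL5 at 0 h.

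**Figure D3:**
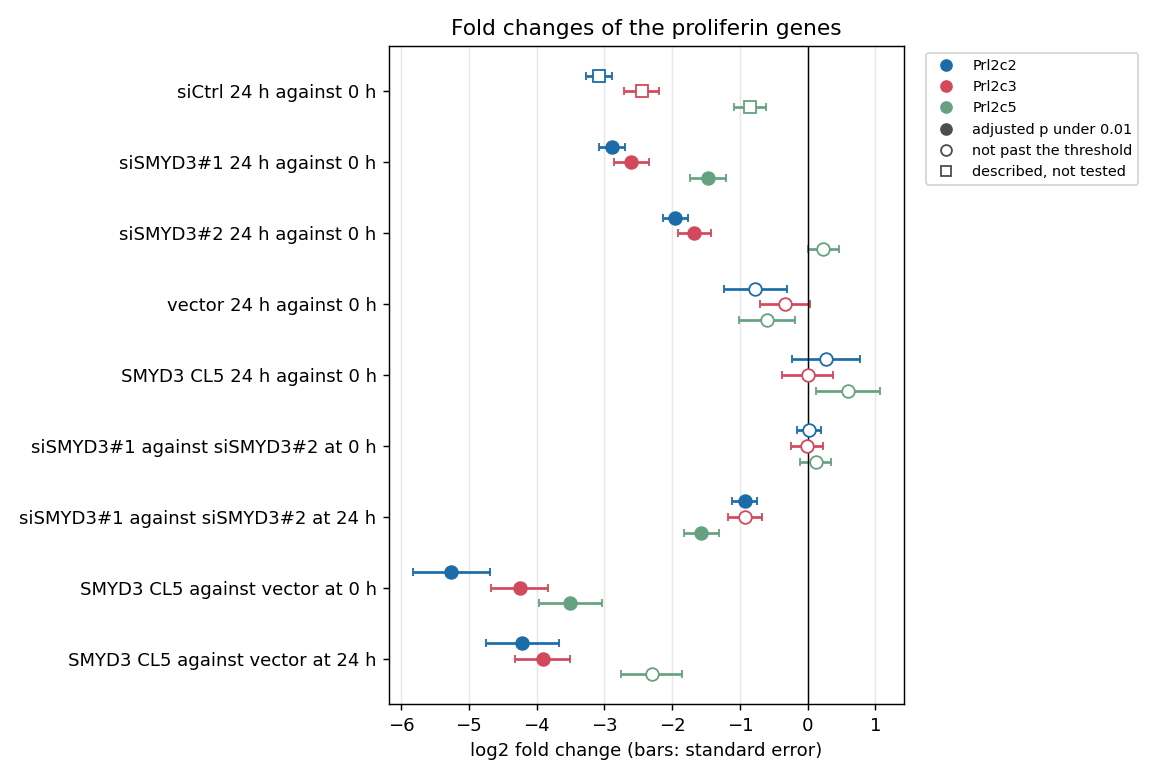
Log2 fold changes of the 3 proliferin genes in 9 comparisons, with bars for the standard error, filled circles for an edgeR adjusted p under 0.01, open circles for values not past it and open squares for the described siCtrl contrast. The lowest values are those of SMYD3 CL5 against vector at 0 h (-5.26, -4.25 and -3.50), and with siSMYD3#2 between 0 h and 24 h Prl2c5 is at 0.23 while Prl2c2 and Prl2c3 are at -1.95 and -1.67.

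Across the 10 conditions the levels of Prl2c2 formed 3 tiers. The 0 h conditions of the siRNA experiment and both vector conditions were highest, with means of 52.8 to 88.2 CPM. The 24 h siRNA conditions followed with means of 19.2 ± 10.8 CPM (SD, n = 3) for siSMYD3#2, 9.36 ± 3.32 for siSMYD3#1 and 7.48 ± 1.66 for siCtrl, and both SMYD3 CL5 conditions were lowest at 2.8 ± 2.04 and 2.41 ± 0.759 CPM (n = 2). Neighbours within a tier overlapped in range, and the tiers did not overlap. For Prl2c3 the first 8 conditions each overlapped the next in range, and SMYD3 CL5 stood below them with means of 9.25 and 9.11 CPM. For Prl2c5 every condition overlapped the next. Levels of the siRNA and overexpression libraries were scaled together but come from separate cultures, so their order across the experiments is a description only.

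The members also differed between the batches of the siRNA experiment, where such differences were common. Over all 15820 genes tested, edgeR called 25.3% lower and 26.1% higher in the TRIzol libraries (adjusted p under 0.01). The share of all genes whose ranges do not overlap between the batches was not counted. At 0 h, Prl2c3 was at 412 to 621 CPM in 6 NucleoSpin libraries and at 53.7 to 63.0 CPM in 3 TRIzol libraries of the siRNA experiment. Prl2c2 was at 82.1 to 107.5 CPM against 30.0 to 37.9 CPM, and Prl2c5 at 4.32 to 6.76 CPM against 1.22 to 2.1 CPM. No TRIzol library reached a NucleoSpin library of the same time and gene, with the exception of Prl2c5 at 24 h, where the ranges were 0.500 to 1.61 and 1.33 to 5.81 CPM. The fitted TRIzol term, looked at after these values had been seen and given without a test, was -1.28 ± 0.12 for Prl2c2, -2.76 ± 0.18 for Prl2c3 and -1.84 ± 0.16 for Prl2c5 on the log2 scale.

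The split of reads between the paralogs moved with the same batch. Prl2c3 took 81.7% to 85.9% of the summed counts of the 3 genes in the 12 NucleoSpin libraries, against 60.7% to 74.3% in the 6 TRIzol libraries of the siRNA experiment, 62.4% to 73.2% in the vector libraries and 71.5% to 79.6% in SMYD3 CL5. Prl2c2 took 10.2% to 17.2%, 22.9% to 37.2%, 25.5% to 35.9% and 16.5% to 23.9% in the same sets. In siCtrl at 0 h the share of Prl2c2 was 13.1% in replicate 1, with a Wilson 95% interval of 12.5% to 13.6% that covers counting error only, and 37.2% in replicate 3, with an interval of 35.4% to 39.1%. The intervals of these libraries do not overlap. By time, Prl2c3 had 4.74 to 6.58 times the counts of Prl2c2 at 0 h and 5.69 to 8.26 times at 24 h in NucleoSpin libraries, and 1.63 to 1.79 times and then 2.32 to 3.25 times in TRIzol libraries, with overlap between the times in the first set and none in the second. The share of Prl2c5 went from 0.750% to 1.07% at 0 h to 1.6% to 5.36% at 24 h in the NucleoSpin libraries, and was 2.82% to 4.85% in SMYD3 CL5.

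**Figure D4:**
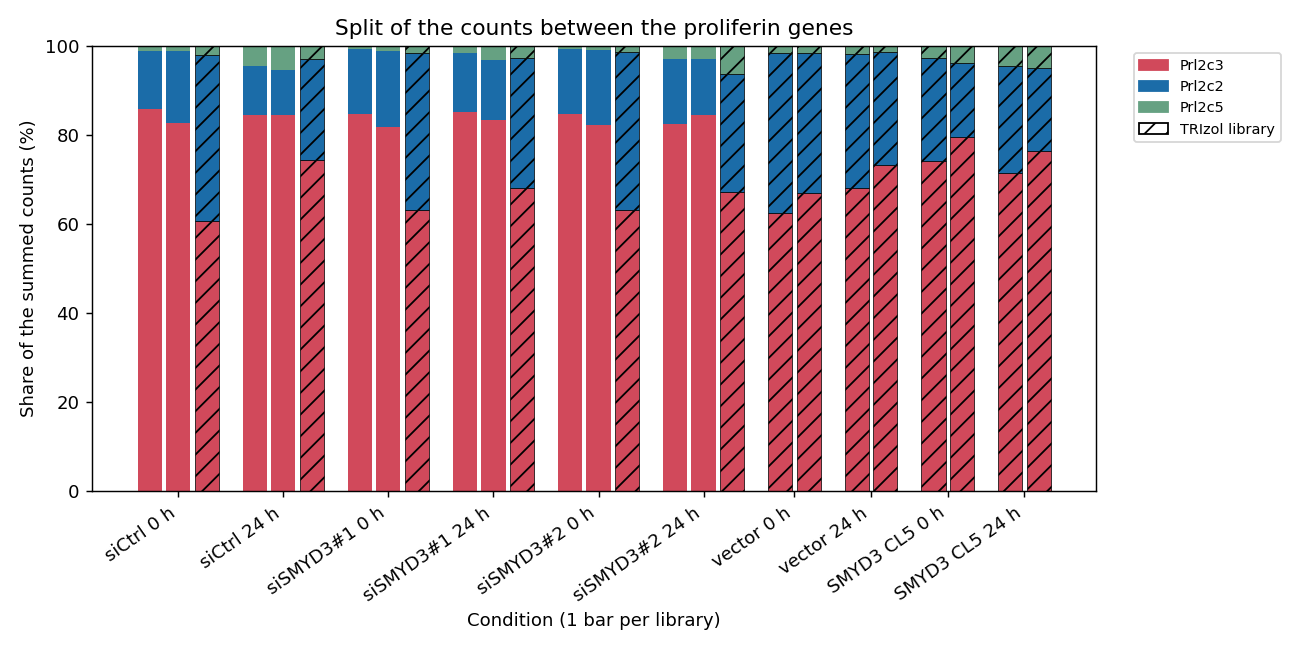
Share of Prl2c3, Prl2c2 and Prl2c5 in the summed counts of the 3 genes (%), 1 bar per library in order of replicate number within each condition, with TRIzol libraries hatched. Prl2c3 holds 81.7% to 85.9% in the NucleoSpin libraries and 60.7% to 79.6% in the TRIzol libraries.

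Upstream of the start sites Prl2c3 and Prl2c5 were about as alike as in their coding parts (96.0% identical there), and Prl2c2 was not compared. RefSeq promoters (GRCm38.p6) were at hand for Prl2c3 and Prl2c5, and the 250 bases before each start, at chr13:12800080-12800329 on the minus strand and chr13:13182466-13182715 on the plus strand, were 96.0% identical over 251 aligned bases with 8 substitutions. Both genes fell with siSMYD3#1, but with siSMYD3#2 Prl2c3 fell (log2 fold change -1.67) and Prl2c5 did not pass the threshold (0.23). Any part of the promoters in these values was not tested. The 250 bases are shown with those that differ or lack a partner in capitals:
Prl2c3: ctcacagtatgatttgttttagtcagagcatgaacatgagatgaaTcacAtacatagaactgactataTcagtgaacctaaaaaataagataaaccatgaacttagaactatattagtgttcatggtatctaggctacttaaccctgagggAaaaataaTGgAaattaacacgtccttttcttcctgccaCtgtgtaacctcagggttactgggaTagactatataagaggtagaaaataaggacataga
Prl2c5: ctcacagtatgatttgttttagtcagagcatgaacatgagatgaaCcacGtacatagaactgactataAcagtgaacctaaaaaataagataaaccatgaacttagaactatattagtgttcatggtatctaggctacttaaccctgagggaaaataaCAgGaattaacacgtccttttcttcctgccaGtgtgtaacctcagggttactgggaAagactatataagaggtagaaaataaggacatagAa

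Both held the TATA-like letters TATATAAG, at 30 bases before the start in Prl2c3 and 31 in Prl2c5, which 0.9% of 32851 promoters of the same length hold on either strand. The AP-1 letters TGANTCA were found once in Prl2c3, as TGAATCA at 209 bases before the start and over a base that differs between the genes, and not in Prl2c5, against 6.7% of all promoters. Neither window held the E-box letters CANNTG, which 66.2% of promoters hold, or AGAACA, a half-site of the glucocorticoid receptor, which 16.1% hold. These matches are descriptions of the letters and not of binding.

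The rest of the prolactin family was at or near 0 counts. Of the 23 other family genes in the files, 8 had 0 counts in all 26 libraries and 12 never exceeded 9. Prl2c1, another gene of the Prl2c group, had 9 and 11 counts in the vector libraries at 0 h, 11 and 3 at 24 h, 0 in all 4 SMYD3 CL5 libraries and at most 8 in any siRNA library, so no fold is given. Prl3d3, a placental lactogen gene, reached 13 counts, and Prl7a1 reached 10, both in siCtrl at 0 h. The pseudogene Gm7040 had 115 and 131 counts in the vector libraries at 0 h and 97 and 47 at 24 h. In SMYD3 CL5 it had 12 and 1 counts at 0 h and 9 and 2 at 24 h. Between 0 h and 24 h its counts went from 3 to 47 to 0 to 3 in siCtrl, from 5 to 21 to 0 to 4 with siSMYD3#1 and from 2 to 57 to 3 to 4 with siSMYD3#2. Whether these are reads of the members was not tested. Prl2c4 was not analysed here.

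A list of 17 genes, of which 16 could be tested, held AP-1 subunits and Atf3, the glucocorticoid receptor, the mannose 6-phosphate and prolactin receptors and growth factor receptors. Fosl1, which encodes the AP-1 subunit Fra-1, was at 80 to 126 CPM at 0 h and 21.6 to 33.2 CPM at 24 h in siCtrl, a log2 fold change of -1.78 ± 0.23 (edgeR adjusted p = 2.43e-05). It fell by 2.00 with siSMYD3#1 (adjusted p = 1.61e-05) and by 1.64 with siSMYD3#2 (adjusted p = 0.000112). Igf2r, the receptor that proliferins bind, rose in siCtrl from 50.8 to 128 CPM at 0 h to 74.4 to 304 CPM at 24 h, a log2 fold change of 1.06 ± 0.23 (adjusted p = 0.00166), though the ranges overlap across batches. In siCtrl 1 list gene was called lower and 1 higher, with a median of 0 against 0.03 over all genes, and these 2 of 16 stand beside 29.4% of all genes called in either direction. With siSMYD3#1 the calls were Igf2r and Atf3 higher and Fosl1 and Junb lower, and with siSMYD3#2 they were Igf2r higher and Fosl1 and Junb lower. These 4 and 3 of 16 genes stand beside 25.4% and 19% of all genes called, shares near those of the list. DESeq2 also called Fos and Fosb with siSMYD3#2.

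In SMYD3 CL5 against vector at 24 h, 0 of these 16 genes were called by edgeR, with 2 at an adjusted p and 5 at an unadjusted p under 0.05, while DESeq2 called 3, namely Egfr, Fgfr1 and Igf2r, all lower. The nearest were Egfr, the epidermal growth factor receptor, at 16.8 to 20.2 CPM against 64.8 to 68.8 CPM (log2 fold change -1.88 ± 0.29, edgeR adjusted p = 0.0171) and Fgfr1, a fibroblast growth factor receptor, with a log2 fold change of -1.20 ± 0.24 (adjusted p = 0.0438). At 0 h Egfr was the 1 gene called by edgeR, with -2.57 ± 0.30 (adjusted p = 0.00615). Fosl1 was at -1.14 ± 0.37 at 24 h (adjusted p = 0.202) and Igf2r at -1.80 ± 0.42 (adjusted p = 0.0741). Prlr, the prolactin receptor, had at most 7 counts in any library. The markers of differentiating muscle had a median log2 fold change over 6 genes of 5.60 at 0 h and 4.54 at 24 h, where 1 and 0 passed the threshold of 0.01 and 4 passed 0.05 at each time. Their part in the proliferin values was not tested.

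The genes whose level followed Prl2c2 most closely over the 26 libraries, other Prl2c genes apart, were Anln, the cytokinesis scaffold anillin (Pearson r = 0.93 in log2 of CPM plus 1), Kif2a, a microtubule-depolymerizing kinesin (0.913), Smc6, a subunit of the SMC5/6 complex (0.903), Slf1, a factor that acts with that complex (0.889), and Pnpt1, a mitochondrial RNA-degrading enzyme (0.884). Prl2c3 itself had r = 0.93. The libraries share batch, depth and clone, so these values describe likeness over 11230 genes compared and carry no test. Over the 18 siRNA libraries alone the same genes had r of 0.947, 0.897, 0.905, 0.919 and 0.947 and stood at ranks 116, 470, 415, 298 and 114. These 5 genes were chosen for their likeness, so their changes are given without a test: -1.06 to -0.52 on the log2 scale between 0 h and 24 h in siCtrl, and -1.17 to -0.87 in SMYD3 CL5 against vector at 0 h, where Prl2c2 was at -3.08 and -5.26.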

How the data were processed

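RNA-Seq of C2C12 cells was taken as 26 libraries in 10 conditions. Conditions come from the sample labels, and replicate number and passage from the study's supplementary information. The study's sources do not number the extraction batch in 1 way; the numbers used here follow its list of samples, matched by title, and extraction method follows the labels. The authors sequenced paired-end 75-base reads of stranded polyA libraries, aligned them to GRCm38 with HISAT2 2.1.0, counted reads per gene with featureCounts (Subread 1.6.3) and deposited raw counts, without normalization. The strand setting, the handling of reads with several alignments and the annotation release are not given in the sources used here.

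Counts were tested in R 4.3.3 with edgeR 4.0.16 (filterByExpr, TMM, robust quasi-likelihood test, Benjamini-Hochberg adjustment over all genes tested, threshold 0.01). Extraction method was a term in the siRNA model, which took 18 libraries and 15820 genes, and the overexpression model took 8 libraries and 17835 genes. A standard error is the size of the log2 fold change divided by the square root of F. Printed levels are CPM with TMM scaling over all 26 libraries, and RPKM uses exon length in GENCODE M21, which also gave symbols and transcripts. Windows of 75 bases were searched on both strands of all its transcripts. Replicates are described as biological without further detail. Intervals of shares are Wilson 95% intervals.

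The members and gene lists were chosen with earlier results of these data known. The rule for named genes took the 3 members, other family genes with at least 10 counts in a library, the 3 largest rises and falls past the threshold among listed regulators with at least 100 counts on average (siCtrl 24 h against 0 h, SMYD3 CL5 against vector at 24 h), the 5 genes of highest Pearson r to Prl2c2 in log2(CPM + 1) with at least 100 counts on average, Smyd3 and marker genes. Egfr, Fgfr1, Atf3, Junb, Prlr, Gm7040, Fos and Fosb, and Fosl1 and Igf2r outside siCtrl, were named after their values were seen. Same-numbered siRNA libraries deviated together (correlations of 0.366 to 0.851 in every comparison). The study's numbers also mark passage and extraction, and that batch was left in these deviations. Same-numbered siRNA libraries were set side by side, but the main model held extraction method and no replicate term. For the overexpression libraries the correlation was 0.483 for SMYD3 CL5 24 h against 0 h and -0.097 to 0.145 in the other comparisons. Those libraries were not taken as paired. The test was run on simulated counts with known changes. These were drawn at the common dispersion and without a batch difference, so that check does not cover the spread between genes or the batches. Alternatives were DESeq2 1.42.0, other size factors, no filter, 1 joint fit, no extraction term, a replicate block, NucleoSpin libraries alone, summed paralogs and leaving out each library.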

Additional observations from a re-analysis of the deposited data

How the results depend on the processing

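Leaving out the low-count filter, DESeq2 and a single fit of all 26 libraries moved calls near the threshold. Between siSMYD3#1 and siSMYD3#2 at 24 h, Prl2c3 passed it with DESeq2 (-0.92), without the filter (-0.94) and in NucleoSpin libraries alone (-1.15), while Prl2c2 missed it in the single fit (-0.91) and without the extraction term (-1.05), as did Prl2c5 without that term (-1.54). The difference of the changes passed for Prl2c2 without the filter (-0.94) and in NucleoSpin libraries alone (-1.11), for Prl2c3 without the filter (-0.93) and for Prl2c5 without the filter and with DESeq2 (-1.70 in both). Prl2c5 in SMYD3 CL5 against vector at 24 h passed with DESeq2 (-2.27), without the filter (-2.28) and in the single fit (-2.23). Without the extraction term, the change from 0 h to 24 h missed it with siSMYD3#1 for Prl2c3 (-2.72) and Prl2c5 (-1.42) and with siSMYD3#2 for Prl2c2 (-1.92) and Prl2c3 (-1.68). The cause was not tested.

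Summing the 3 members, or all annotated Prl2c genes, gave -2.55 for siCtrl between 0 h and 24 h, 0.01 and -0.09 for siSMYD3#1 against siCtrl at 0 h and 24 h, 0.00 and 0.85 (0.86 for all Prl2c genes) for siSMYD3#2, -0.94 between the SMYD3 siRNAs at 24 h, which no longer passed, -1.70 for siSMYD3#2 between 0 h and 24 h, the opposite sign to Prl2c5 alone, and -3.95 for SMYD3 CL5 against vector at 24 h. Prl2c3 holds 60.7% to 85.9% of the summed counts. In NucleoSpin libraries alone the siCtrl change of Prl2c3 was -2.83 and siSMYD3#2 against siCtrl at 24 h was 1.59 for Prl2c2 and 1.23 for Prl2c3, and without the extraction term the last was 1.13. The replicate block changed no call of a member: Prl2c2 between the SMYD3 siRNAs at 24 h stayed at -0.93 (edgeR adjusted p = 0.00906).

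Leaving out each library in turn gave these lowest and highest log2 values where a call, a sign or a described value moved. For SMYD3 CL5 24 h against 0 h the range was -0.82 to 0.82 for Prl2c2, -0.73 to 0.46 for Prl2c3 and -0.18 to 1.01 for Prl2c5. For SMYD3 CL5 against vector at 0 h the range was -5.58 to -4.87 for Prl2c2, -4.38 to -4.04 for Prl2c3 and -3.69 to -3.23 for Prl2c5. For SMYD3 CL5 against vector at 24 h the range was -5.31 to -3.66 for Prl2c2 and -4.64 to -3.44 for Prl2c3. For SMYD3 CL5 against vector in the difference of the changes the range was -0.05 to 1.59 for Prl2c2 and -0.40 to 0.81 for Prl2c3. For siCtrl 24 h against 0 h the range was -3.38 to -2.96 for Prl2c2 and -2.85 to -2.27 for Prl2c3. For siSMYD3#1 against siCtrl at 24 h the range was 0.14 to 0.55 for Prl2c2 and -0.32 to 0.25 for Prl2c3. For siSMYD3#1 against siSMYD3#2 at 24 h the range was -1.12 to -0.80 for Prl2c2 and -1.89 to -1.30 for Prl2c5. For siSMYD3#2 against siCtrl at 24 h the range was 1.05 to 1.47 for Prl2c2 and 0.61 to 1.18 for Prl2c3. For siSMYD3#1 against siSMYD3#2 at 0 h the range was -0.18 to 0.26 for Prl2c3.

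Over all genes, calls in siCtrl between 0 h and 24 h went from 4655 to 1676 without the extraction term and 2838 in the single fit. Between the SMYD3 siRNAs at 24 h they went from 532 to 1007 with DESeq2, 97 in the single fit and 25 without the extraction term. They were 1092 without the filter and 1486 in NucleoSpin libraries alone. For SMYD3 CL5 against vector the calls went from 191 to 1041 at 0 h and from 172 to 880 at 24 h with DESeq2, and to 1995 and 1334 in the single fit. Leaving out 1 library gave 0 to 2369 calls at 0 h, 0 to 12 at 24 h and 0 to 1037 for SMYD3 CL5 between 0 h and 24 h. Prl2c5 in SMYD3 CL5 rests on 8 to 48 counts per library, which limits its precision.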
